A study of Rattus norvegicus with 6 samples.

Results

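The insulin-like growth factor (IGF) transcripts examined here are those of the ligands Igf1 and Igf2, of the receptor Igf1r and of the binding proteins Igfbp2 to Igfbp7, 9 of the 14217 genes with a probe set. They were taken by gene symbol, which gave 21 of 31042 probe sets. RNA was measured on 6 Affymetrix rat arrays of primary Schwann cells, the glia of peripheral nerve, cultured from rat sciatic nerve. All cells carried RafER, an inducible allele in which the kinase Raf is joined to the ligand-binding domain of the estrogen receptor and becomes active with tamoxifen. After a period in minimal medium the vehicle cells received ethanol for 24 h and the other cells tamoxifen for 24 h, in 3 independent experiments per the series' design text. The source labels speak of control and treated rats, whereas in the design text cultured cells were treated, and the latter was followed. Rat strain, age and the promoter that drives RafER are not given in the sources used here. No cells lacking RafER were analysed here, and a response to the drug on its own cannot be told apart from a response to Raf.

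IGF1 and IGF2 are secreted peptides that act through the receptor tyrosine kinase IGF1R, which signals to PI3K and AKT and to RAS and ERK. The binding proteins hold the ligands outside the cell, extend their lifetime, and either block or favour their access to the receptor, and proteases that cut the binding proteins release the ligands. In Schwann cells IGFs are known as survival factors and promote myelination, and an autocrine loop of IGF2 and IGFBP5 has been described as a source of that survival. IGFBP7 is a relative of the other binding proteins with low affinity for IGFs.

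The family was picked with results of the tamoxifen comparison in view, so its values, differences and calls are a description of these arrays and no evidence that the family as such responds. Each value is a deposited log2 expression value of 1 probe set, so a step of 1 doubles the signal, and values of different probe sets cannot be compared with each other as amounts. Differences are given as tamoxifen minus vehicle, ± the SE from a limma model, and a probe set is said to have risen or fallen where its adjusted p in the fit over all probe sets was below 0.05. With these arrays, p-values measure the spread between 3 cultures per group.

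After tamoxifen the binding proteins moved in opposite directions. Igfbp3 rose about 25.3-fold by its brighter probe set, Igfbp5 fell (6.49-fold lower by its brightest probe set) and Igfbp7 fell (2.54-fold lower). Igf1 and Igfbp4 rose by smaller amounts, 1.83-fold and 1.55-fold. Igf1r, Igf2, Igfbp2 and Igfbp6 did not pass. The brighter probe set of Igf1r was lower within every experiment, and it passed in a limma fit that paired arrays by experiment (adjusted p = 0.0117).

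The sequences before the annotated start sites of these 4 binding protein genes are shown because these are the binding proteins whose transcripts moved. Each is the 250 bases upstream of the start in RefSeq's promoter table, build GRCr8, written in the direction of transcription, with TATA boxes and GC boxes in capitals. The TATA box was searched as TATAAA and also as its variant TATATA. The GC box was searched as GGGCGG, and each word was searched on both strands.
Igfbp3, chr14:86277945-86278194, minus strand: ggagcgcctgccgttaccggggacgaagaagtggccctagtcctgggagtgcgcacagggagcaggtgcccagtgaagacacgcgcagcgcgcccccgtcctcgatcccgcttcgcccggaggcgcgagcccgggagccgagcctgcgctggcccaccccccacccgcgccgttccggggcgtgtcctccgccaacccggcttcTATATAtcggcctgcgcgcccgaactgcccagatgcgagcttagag
Igfbp4, chr10:84491221-84491470, plus strand: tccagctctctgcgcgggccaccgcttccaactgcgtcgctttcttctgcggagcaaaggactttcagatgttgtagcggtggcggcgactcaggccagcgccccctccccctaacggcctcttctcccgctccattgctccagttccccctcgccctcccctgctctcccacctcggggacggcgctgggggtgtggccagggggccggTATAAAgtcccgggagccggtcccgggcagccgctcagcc
Igfbp5, chr9:81914188-81914437, minus strand: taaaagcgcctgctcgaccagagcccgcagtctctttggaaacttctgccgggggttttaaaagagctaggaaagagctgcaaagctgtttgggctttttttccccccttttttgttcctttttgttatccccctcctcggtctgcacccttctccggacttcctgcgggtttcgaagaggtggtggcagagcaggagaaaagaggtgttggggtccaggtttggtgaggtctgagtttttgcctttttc
Igfbp7, chr14:31091486-31091735, plus strand: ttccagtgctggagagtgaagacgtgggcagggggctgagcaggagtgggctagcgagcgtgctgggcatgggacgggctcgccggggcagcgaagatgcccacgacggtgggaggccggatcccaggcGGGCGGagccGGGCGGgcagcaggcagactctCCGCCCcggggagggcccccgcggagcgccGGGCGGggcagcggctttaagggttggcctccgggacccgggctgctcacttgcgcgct

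Igfbp3 and Igfbp4, which rose, had 1 TATA word each, which began 46 and 40 bases before the start. The window of Igf1, which also rose, had 0, as had those of Igfbp5 and Igfbp7, which fell. Whether a TATA word goes with the direction of change was not tested. Igfbp7 had 4 GC boxes, beginning 121, 111, 89 and 59 bases before the start, and the other 3 windows had 0. Over the 33469 windows of this length in the table, 16.1% held a TATA word and 30.5% a GC box, both strands counted. Other words were also searched on both strands. TGANTCA, the site bound by AP-1, occurred in 6.34% of windows and CACGTG, an E-box, in 5.59%, and neither was found in these 4. CCGGAA, a core bound by ETS factors, occurred in 12.6% of windows and began 78 bases before the start of Igfbp3. No matches overlapped in these 4 windows. These are matches of letters and were not tested as binding sites.

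In the RefSeq gene order Igfbp2 and Igfbp5 are neighbours on chromosome 9, and Igfbp3 lies next to Igfbp1 on chromosome 14. Igfbp7 is also on chromosome 14. The difference was -2.70 ± 0.25 for Igfbp5 and 0.17 ± 0.11 for its neighbour Igfbp2 (log2 units ± SE). It was 4.66 ± 0.23 for Igfbp3 and 0.13 ± 0.11 for its neighbour Igfbp1. The 95% intervals of the differences did not overlap within either pair (-3.31 to -2.09 against -0.09 to 0.44, and 4.11 to 5.21 against -0.14 to 0.39). However, Igfbp2 (mean 5.26 in vehicle and 5.43 after tamoxifen) and Igfbp1 (4.68 and 4.80) were dim. Such values can be background, so they cannot tell whether the transcripts of neighbours moved together.

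Of the 21 probe sets 5 rose and 5 fell. Over all 31042 probe sets the shares were 11.5% and 12.9%. For 11 of the 21 the ranges of the groups did not overlap, against 42.4% of all probe sets. By the brightest probe set of each gene 3 of 9 genes rose and 2 fell, where 13.9% and 17.3% of all 14217 genes did, and the groups did not overlap for 5 of 9, against 49.1% of all genes. The median difference of the 21 probe sets was 0.01, and that of all probe sets 0.03.

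**Figure D1:**
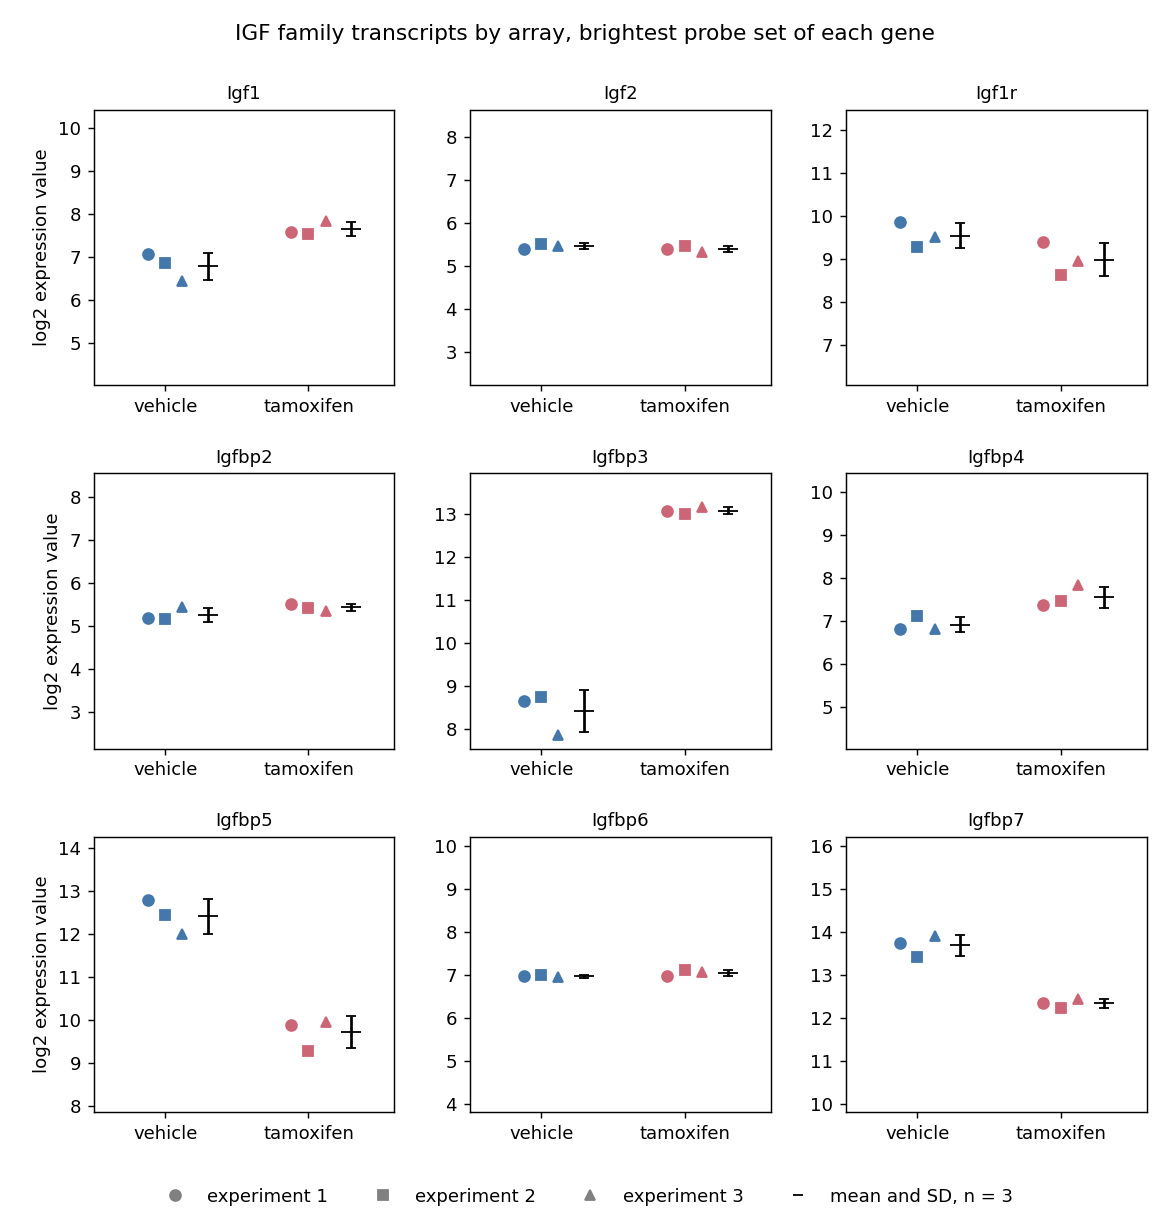
Log2 expression value (y axis, each panel spanning the same number of log2 units) of the brightest probe set of each IGF family gene on the 3 vehicle and 3 tamoxifen arrays, with the experiment as symbol and the mean and SD beside the points. Igfbp3 stands near 13 on all tamoxifen arrays, Igfbp5 and Igfbp7 are lower there, and Igf1r, Igf2, Igfbp2 and Igfbp6 overlap between groups.

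Igf1, the ligand that acts on Schwann cells in development and after injury, had values of 7.05, 6.85 and 6.43 on vehicle arrays 1, 2 and 3 and of 7.58, 7.54 and 7.82 on the tamoxifen arrays of the same numbers by probe set 1370333_a_at. All tamoxifen values were above all vehicle values, and the rise was 0.87 ± 0.17. It was 0.53, 0.69 and 1.39 within experiments 1, 2 and 3. By the dimmer probe set 1388469_at the values went from 4.83, 4.18 and 4.62 to 5.28, 5.05 and 5.43, again without overlap, a rise of 0.71 ± 0.18. It did not pass once vehicle array 2 was left out (adjusted p = 0.0597), nor without vehicle array 3 (0.0656) or any tamoxifen array (0.0896, 0.0521 and 0.107 without arrays 1, 2 and 3), nor without both arrays of experiment 1 (0.0528). The dimmest probe set, 1382599_at, gave 0.43 ± 0.17, did not pass and overlapped by 1 tamoxifen value (4.11 on array 2) that lay below the highest vehicle value (4.16).

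Igf2, the other ligand, was dim by all 4 of its probe sets, with values between 4.87 and 5.72 on all 6 arrays, below the median of every array (6.30 to 6.37). The file holds no detection calls, so such values can be background. Probe set 1371206_a_at had 5.39, 5.52 and 5.47 in vehicle and 5.38, 5.46 and 5.34 after tamoxifen. None of the 4 passed, the differences ran from -0.18 to 0.04, and the groups overlapped in each. For the probe set just given the 95% interval of the difference was -0.27 to 0.13.

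Igf1r, the receptor that binds both ligands, had values of 9.84, 9.27 and 9.49 in vehicle and 9.38, 8.61 and 8.95 after tamoxifen by probe set 1392492_at. The groups overlapped, because tamoxifen array 1 lay above vehicle array 2, and the difference of -0.56 ± 0.23 did not pass (adjusted p = 0.130). Within every experiment the tamoxifen value was lower, by differences of -0.46, -0.66 and -0.54. When experiments were fitted as a replicate block, the same difference had an SE of 0.09 and passed (adjusted p = 0.0117). The other probe set, 1368123_at, went from 9.20, 8.89 and 9.21 to 9.03, 8.53 and 8.78, a difference of -0.32 ± 0.16 that did not pass with or without the block. Its 95% interval was -0.69 to 0.05.

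Igfbp3, the main carrier of IGFs in serum and a protein that can also act on cells without IGF, showed the largest difference of the family. By probe set 1367652_at the vehicle values were 8.64, 8.74 and 7.85, and the tamoxifen values were 13.07, 12.99 and 13.15. By 1386881_at they were 8.91, 8.31 and 7.51 against 13.14, 12.99 and 13.18. The groups were thus separated by more than 4 log2 units in both, and the differences were 4.66 ± 0.23 and 4.86 ± 0.33, or 25.3-fold and 29.1-fold. The vehicle arrays were spread more widely (SD 0.49 and 0.70) than the tamoxifen arrays (SD 0.08 and 0.10), with array 3 lowest in vehicle in both probe sets. Experiment 3 accordingly had the largest difference, 5.30 and 5.68. Leaving out each array in turn gave 4.38 to 4.83 for 1367652_at and 4.50 to 5.20 for 1386881_at. Among the 14217 genes, only 10 had a larger rise by their brightest probe set.

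Igfbp4, a binding protein that mostly restrains IGF action, had 1 probe set, with vehicle values of 6.82, 7.12 and 6.82 and tamoxifen values of 7.37, 7.46 and 7.84. The groups did not overlap and the rise was 0.64 ± 0.15. It did not pass once vehicle array 1 was left out (adjusted p = 0.0592), nor without vehicle array 3 (0.0737), tamoxifen array 2 (0.0606), tamoxifen array 3 (0.0555) or both arrays of experiment 1 (0.0628). Without vehicle array 3, tamoxifen array 2 or tamoxifen array 3, only 3 of the 21 probe sets rose in place of 5.

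Igfbp5, the binding protein tied to Schwann cell survival, had 5 probe sets, and in all of them each tamoxifen value was below each vehicle value. By the brightest, 1370960_at, the values went from 12.79, 12.43 and 12.00 to 9.89, 9.28 and 9.96, and the level fell by 2.70 ± 0.25. By 1396152_s_at they went from 10.29, 11.21 and 10.22 to 8.09, 7.49 and 8.20, with a difference of -2.65 ± 0.31. Among genes by their brightest probe set, 52 had a larger fall than Igfbp5.

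The 3 dimmer probe sets gave smaller differences, with wider spread in vehicle. For 1397830_at the vehicle values were 9.19, 10.51 and 9.47 and the tamoxifen values 7.47, 7.07 and 7.63, a difference of -2.33 ± 0.34. For 1387348_at they were 8.25, 9.94 and 9.12 against 7.26, 7.34 and 7.65, a difference of -1.69 ± 0.39. For 1387347_at they were 7.91, 9.91 and 8.56 against 7.32, 7.47 and 7.70, a difference of -1.30 ± 0.47 that did not pass (adjusted p = 0.0929). In these 3, vehicle array 1 was the lowest vehicle array and vehicle array 2 the highest, whereas by 1370960_at vehicle array 1 was the highest.

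On vehicle array 1 the control probe sets at the 5' ends of 3 rat transcripts were also weak relative to those at the 3' ends, by a mean of 0.84 log2 units, whereas the remaining 5 arrays had gaps of 0.16 to 0.27. The part of this in the spread of the Igfbp5 probe sets was not tested. Without vehicle array 1 the difference of 1387347_at was -1.74 and passed (adjusted p = 0.0229), and without both arrays of experiment 1 it was -1.65 (adjusted p = 0.0644). Probe set 1387348_at did not pass once vehicle array 3 was left out (adjusted p = 0.0586), nor without any of the tamoxifen arrays (0.0710, 0.0765 and 0.0530 without arrays 1, 2 and 3). Without both arrays of experiment 1 the differences of 1370960_at, 1396152_s_at, 1397830_at and 1387348_at were -2.60, -2.87, -2.64 and -2.03, and those 4 passed.

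**Figure D2:**
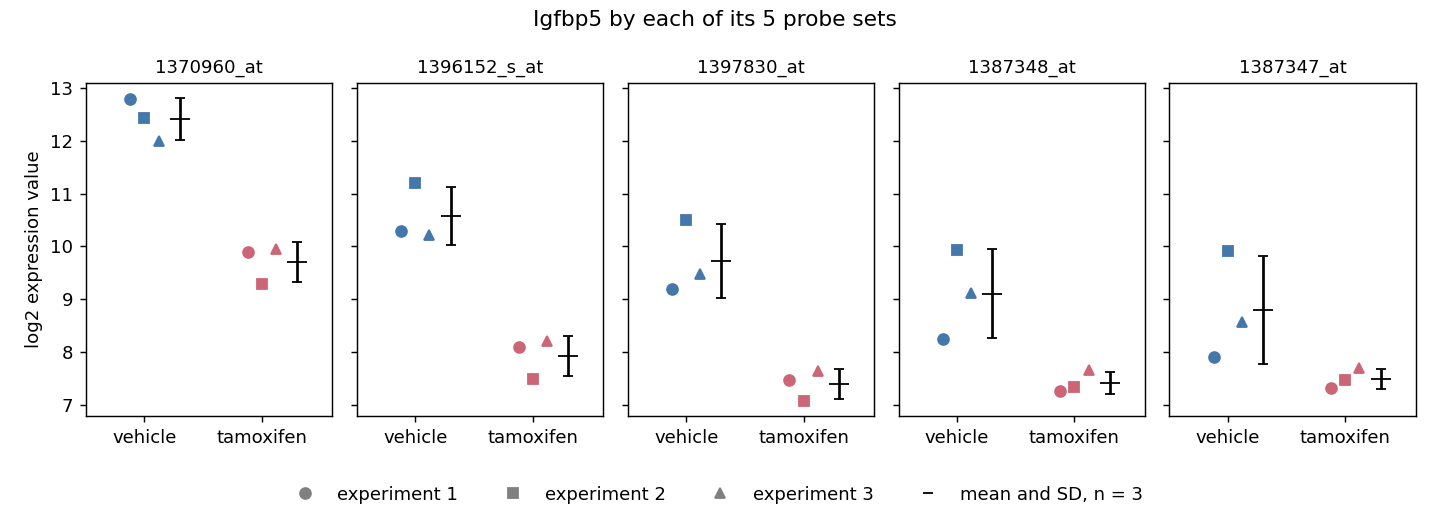
Log2 expression value (y axis) of Igfbp5 by each of its 5 probe sets, 1 per panel, on vehicle and tamoxifen arrays, with the experiment as symbol and the mean and SD beside the points. In every panel the tamoxifen arrays lie below the vehicle arrays, and the vehicle arrays spread more widely in the 3 panels on the right (SD 0.69, 0.84 and 1.02) than in the first (0.40). Heights are not comparable between panels as amounts.

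Igfbp7, a secreted protein of basement membranes and vessels, had 1 probe set, with vehicle values of 13.73, 13.42 and 13.89 and tamoxifen values of 12.35, 12.23 and 12.43. The groups did not overlap, and the level fell by 1.34 ± 0.14. Within experiments the differences were -1.38, -1.19 and -1.46, and leaving out each array gave -1.48 to -1.24. The signal stayed high on all arrays after tamoxifen.

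Igfbp2, a binding protein of developing tissues, was dim, at 5.18, 5.15 and 5.45 in vehicle and 5.51, 5.42 and 5.35 after tamoxifen. The groups overlapped and the difference of 0.17 ± 0.11 did not pass (95% interval -0.09 to 0.44). Igfbp6, which prefers IGF2 as ligand, had 6.96, 7.0 and 6.93 in vehicle and 6.97, 7.10 and 7.07 after tamoxifen by 1372168_s_at, a difference of 0.08 ± 0.08. Its other probe set, 1387625_at, gave 0.10 ± 0.14, and the groups overlapped in both. The 95% intervals were -0.11 to 0.28 and -0.24 to 0.45.

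**Figure D3:**
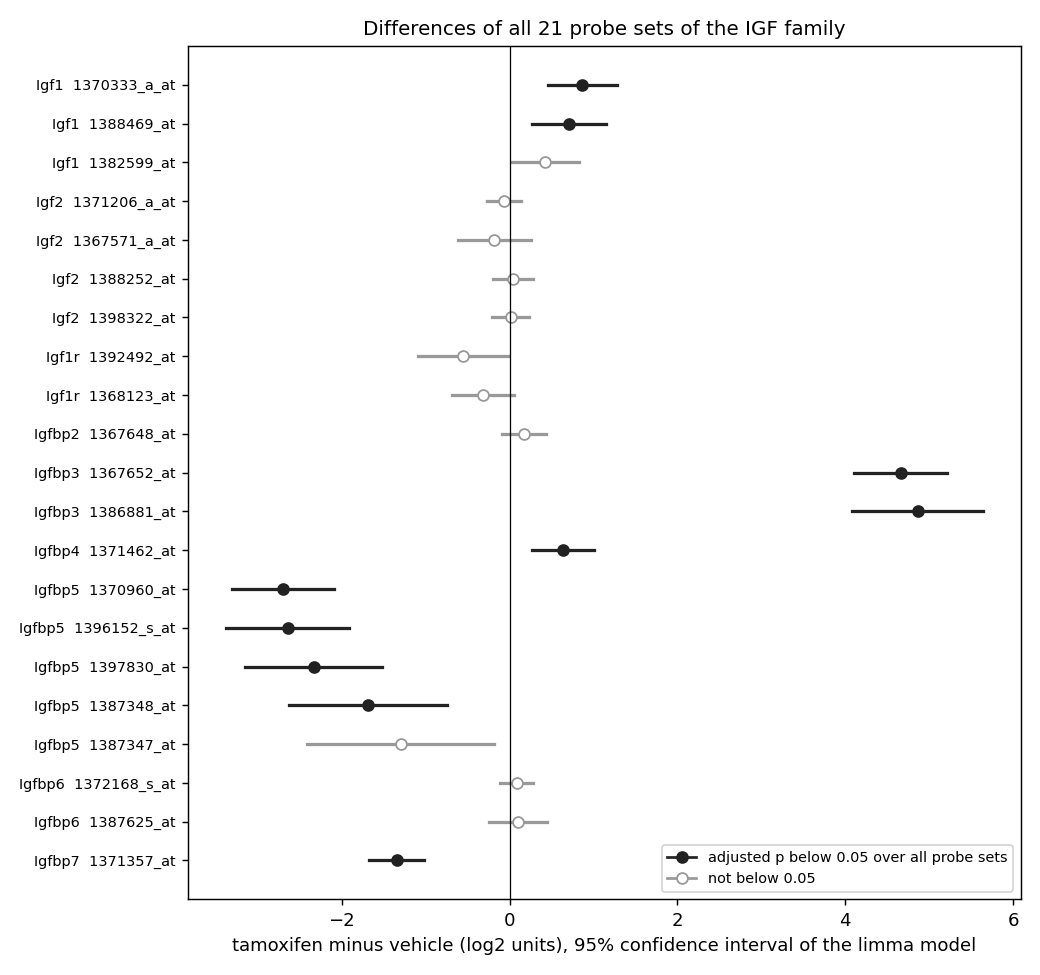
Difference in log2 units, tamoxifen minus vehicle (x axis), with the 95% confidence interval of the limma model, for all 21 probe sets of the 9 genes (y axis). Both Igfbp3 probe sets lie above 4, all Igfbp5 probe sets and Igfbp7 lie below 0, and filled points mark the 10 probe sets with an adjusted p below 0.05.

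The following lists of other genes, chosen by their known roles, cover the pathway around the family. The first holds other IGF system genes: further receptors, binding proteins, relatives of the binding proteins and IGF2 mRNA-binding proteins. Of 22 genes, all measured, 2 rose (9.09%) and 3 fell (13.6%), where 13.9% of all genes rose and 17.3% fell, and the median difference was -0.03, against 0.01 over all genes. With the replicate block 5 fell, the added ones being Ccn2 (-0.79, adjusted p = 0.00797) and Ghr (-1.35, adjusted p = 0.0182). Insr, the insulin receptor, which also pairs with IGF1R in hybrid receptors, rose by 0.75 ± 0.14, from 7.36 ± 0.15 to 8.11 ± 0.23 (mean ± SD, n = 3 arrays per group). Its dimmer probe set gave 0.74 ± 0.22 and missed the threshold (adjusted p = 0.0529), and without both arrays of experiment 1 the brighter one did not pass either (adjusted p = 0.0655). Igf2r, which takes IGF2 up for degradation, had a difference of 0.23 ± 0.27 and did not pass.

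The mRNA-binding protein gene Igf2bp2 rose by 0.80 ± 0.15, while its dimmer probe set (0.28 ± 0.16) did not pass. Ccn1, a matrix protein with an IGFBP-like domain, fell by 1.44 ± 0.23, and Kazald1, which also carries an IGFBP-like domain, fell by 0.94 ± 0.17. Tmem219, a receptor for IGFBP3, is the remaining gene of the list that passed, and it fell by 0.41 ± 0.09.

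Of 37 measured genes of insulin and IGF receptor signalling, 4 rose (10.8%, against 13.9% of all genes) and 10 fell (27.0%, against 17.3%), with a median of -0.20. Without tamoxifen array 2 or 3 only 4 fell. These counts use the brightest probe set of each gene. By a dimmer probe set Grb2 fell (-0.65 ± 0.11) and Akt1 rose (0.42 ± 0.10), while their brightest probe sets did not pass. The 4 largest changes were falls. Grb14, an adaptor that inhibits the insulin receptor, fell by 2.36 ± 0.51, and it no longer passed when tamoxifen array 1 (adjusted p = 0.0577), 2 (0.0556) or 3 (0.0514) was left out. Gab1, a docking protein that recruits PI3K, fell by 1.96 ± 0.23. Pik3ip1, an inhibitor of PI3K, fell by 1.75 ± 0.33 by its brighter probe set, and the other one (0.24 ± 0.11) did not pass. Foxo3, a transcription factor that AKT keeps out of the nucleus, fell by 1.65 ± 0.17, with its dim other probe sets at -0.20 and 0.27, neither past the threshold. The docking proteins that carry the signal from the receptor, Irs1 (-0.26 ± 0.11) and Irs2 (-0.45 ± 0.31), did not pass.

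Among 18 measured proteases that are known to cut IGF binding proteins and their regulators, 4 rose (22.2%, against 13.9% of all genes) and 5 fell (27.8%, against 17.3%), with a median of -0.01. Adamts1 rose by 2.33 ± 0.27 and the urokinase gene Plau by 1.64 ± 0.33 (1.45 by its dimmer probe set). C1s, a complement protease that cuts IGFBP5, fell by 2.27 ± 0.53, and it no longer passed when tamoxifen array 1 (adjusted p = 0.0727) or 2 (0.0789) was left out. Mmp19 fell by 1.44 ± 0.33, and it no longer passed with vehicle array 2 left out (adjusted p = 0.0643). Without tamoxifen array 1 or 2, only 2 of the list fell. Pappa, the gene of the IGFBP protease PAPP-A, was not measured. Pappa2, also on the list, rose by 0.48 ± 0.08 at dim signal (means 4.75 in vehicle and 5.22 after tamoxifen). Its dimmer probe set (0.14 ± 0.10) did not pass. The stanniocalcins, which inhibit PAPP-A, did not pass: Stc1 was dim at -0.01 ± 0.08, and Stc2 had -1.24 ± 0.48. Stc2 passed in the fit with the replicate block (adjusted p = 0.0371) and without vehicle array 3 (-1.81, adjusted p = 0.00593). The call of Htra1, a secreted protease that carries an IGFBP-like domain (-0.44), was lost with the block (adjusted p = 0.0541).

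Of 20 measured genes that FOXO factors are known to induce, and that AKT signalling therefore keeps low, 3 rose (15%, against 13.9% of all genes) and 7 fell (35%, against 17.3%), with a median of -0.16. Gadd45a fell by 2.71 ± 0.23, Sesn1 fell by 2.42 ± 0.18 and Ccng2 fell by 2.04 ± 0.48. Trib1 rose by 1.52 ± 0.25, with 0.85 and 0.33 by its other probe sets, the last not past the threshold. Insr, given above, is also on this list and is 1 of the 3 that rose. Ccng2 did not pass once vehicle array 2 was left out (adjusted p = 0.0652), nor without vehicle array 3 (0.0633) or tamoxifen array 2 (0.0516). The members that passed include genes that respond to other signals as well, such as the stress-induced Gadd45a and Sesn1.

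**Figure D4:**
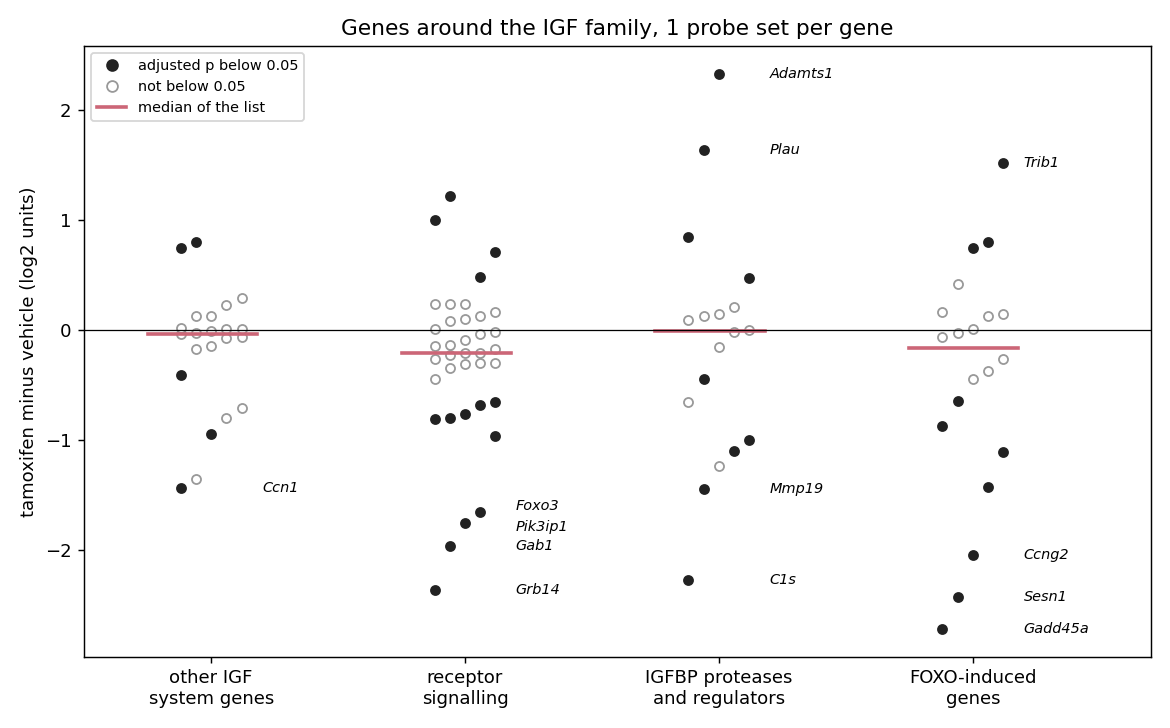
Difference in log2 units, tamoxifen minus vehicle (y axis), of each measured gene of 4 lists (x axis), by the brightest probe set of the gene. Filled points have an adjusted p below 0.05 over all probe sets, and red lines mark the medians (-0.03, -0.20, -0.01 and -0.16). Labels name filled points with changes beyond 1.2 log2 units among the genes described in the text.

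Genes with 1 symbol were searched for the profiles closest to those of members. The members themselves and genes named by LOC or RGD numbers were left out of the search. Closeness was the Euclidean distance between log2 values centred on each probe set's mean over the 6 arrays. Closest to Igfbp3 were Nptxr (distance 0.41, Pearson r = 0.998), Egr1 (0.64, r = 0.994) and Dusp6 (0.70, r = 0.993), with differences of 4.65, 4.51 and 4.53. Closest to Igf1 were Aven, Ccdc88a and Ttc39c, at 0.14 each, and closest to Igf1r were Ino80d (0.09), Pkd1 (0.12) and Med13l (0.17). Closest to Igf2 were Osbpl2 (0.05), Mrc1 and Clec1b (0.06 each), all with small differences. These profiles are over 6 arrays of 2 groups. Those near Igfbp3, Igf1 and Igf1r share the difference between the groups. The genes near Igf1r also share with it the order of the arrays within each group. Whether any of these genes have regulation in common was not tested. Igf2 was dim and had little difference, so genes with little change lie close to it.

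The brightest Schwann markers were S100b, at 13.11 ± 0.08 in vehicle and 12.35 ± 0.45 after tamoxifen, and Ngfr, at 12.99 ± 0.49 and 11.46 ± 0.51. Values of the list ran down to those of Gfap, at 7.29 ± 0.06 and 7.06 ± 0.62. Of 11 listed Schwann markers 8 were measured. In limma 3 fell and 0 rose, and 4 were lower and 0 higher at an unadjusted p below 0.05. Mbp had the largest difference, -1.96 ± 0.29. The summed linear signal of the Schwann markers was 21229 to 29101 in vehicle and 9209 to 14766 after tamoxifen. IGFs and their binding proteins are also products of fibroblasts, macrophages and vascular cells. Of 12 fibroblast markers 3 rose and 3 fell, and their summed linear signal was 28541 to 31488 in vehicle and 20944 to 26847 after tamoxifen. Over all genes 13.9% rose and 17.3% fell, the shares to set beside the counts of each marker list. Col3a1 (-2.38), Col1a1 (-1.23) and Col1a2 (-0.46) fell, and Fbln1 (1.61), Pdgfra (0.52) and Pi16 (0.37) rose. Postn (13.19 ± 0.65 and 13.58 ± 0.31) and Col1a2 (13.26 ± 0.24 and 12.80 ± 0.06) were bright in both groups, and Lum (3.44 ± 0.11 and 3.43 ± 0.08) and Dcn (4.05 ± 0.04 and 4.25 ± 0.02) were near the lowest values of the arrays.

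Of 11 macrophage markers 0 passed in limma, 2 were higher and 0 lower at an unadjusted p below 0.05, and the summed signal was 378 to 406 and 384 to 417. The brightest were Lyz2 (6.44 ± 0.15 and 6.26 ± 0.11) and Aif1 (5.46 ± 0.06 and 5.72 ± 0.07). Of 8 endothelial markers 1 fell, Egfl7 (8.24 ± 0.16 and 7.75 ± 0.07), while Vwf was at 5.42 ± 0.10 and 5.45 ± 0.09. The endothelial sum was 453 to 511 in vehicle and 389 to 422 after tamoxifen. It is weighted towards Egfl7, by far the brightest of the list, and the other 7 markers did not pass. The sums of the other lists are likewise weighted towards their brightest markers and do not describe each list as a whole. Of 8 mural markers 0 passed in limma (2 higher and 0 lower at an unadjusted p below 0.05), with Tagln at 9.51 ± 1.24 and 8.97 ± 0.88, Acta2 at 7.53 ± 0.15 and 7.52 ± 0.10 and a sum of 923 to 2828 and 795 to 1622. With eBayes set to trend and robust 1 mural marker rose, and with that setting and the unmoderated test 0 macrophage markers passed. The part of other cell types in the IGF values was not tested. In bulk RNA, fewer cells of a type and less RNA per cell cannot be told apart.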

How the data were processed

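Total RNA, prepared with Qiagen RNeasy columns, was labelled by the Affymetrix procedure, per the labels' protocols. The deposited table holds log2 expression values per probe set, made by the authors with RMA, which the submitters' processing notes name without a version. Because RMA pulls low signals together, changes of dim transcripts are probably larger than their values. The number of arrays limits the precision.

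Groups and experiment numbers came from the sample titles. Of 31099 probe sets 57 manufacturer controls were left out. Gene symbols came from GEO's platform annotation, updated through Entrez identifiers in the RefSeq table (assembly GRCr8; 20758 matched, 0 symbols changed). Of the probe sets tested, 20826 had 1 symbol, 436 had several and were not named, and 9780 were not listed with a symbol. A gene outside the family was taken at whichever of its probe sets had the highest mean. All 6 arrays were fitted in limma 3.58.1 (lmFit, eBayes; R 4.3.3), two-sided and with no covariates; p-values were adjusted by Benjamini-Hochberg across 31042 probe sets, and the procedure was tested on simulated data.

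The members, lists and tests were chosen with earlier results of these data known. The text names all members, up to 4 genes past the threshold with the largest difference per list plus 6 measured fixed genes, the 3 nearest profiles of 4 members and the 2 brightest markers per cell type. Tmem219, Htra1, Pappa2, Ccn2, Ghr and Sod2, and Igfbp1 as a neighbour of Igfbp3, were named after their values were seen. So were the dim fibroblast markers Lum and Dcn and the fibroblast markers Col3a1, Col1a1, Fbln1, Pdgfra and Pi16. The same holds for the Schwann markers Gfap and Mbp and for the signalling genes Grb2 and Akt1. Residuals from group means correlated between arrays of the same experiment number (0.26, 0.20 and 0.28), which was taken as pairing, a reading based on the data and on the series' design text. The fit with a replicate block was an alternative, beside leaving out arrays, other scalings, filters, variance models, array weights, a minimum fold and other probe set choices. Leaving out both arrays of experiment 1 was added after seeing the data.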

Additional observations from a re-analysis of the deposited data

How the results depend on the processing

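Of the values of the 21 family probe sets and the named pathway genes under the alternatives listed with the methods, none reversed a call. For the family 309 values kept their side of the threshold, 23 lost it and 3 gained it, and for the pathway genes the numbers were 342, 32 and 2. Over all probe sets, median centring, quantile normalization and cyclic loess moved the median difference from 0.03 to -0.01, 0.00 and 0.01.

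With the experiment as a replicate block, 5 in place of 3 other IGF system genes fell, and the calls of Igf1r, Stc2, Htra1 and Sod2 (0.42, adjusted p = 0.0444) changed; it changed no other call of the family or the lists. Leaving out 1 array gave 2668 to 3771 probe sets lower in place of 4004 (lowest without tamoxifen array 2), 3 to 4 family probe sets higher and 4 to 6 lower, 3 to 5 signalling genes higher and 4 to 9 lower, 2 to 5 protease genes lower, and 3 to 4 FOXO-induced genes higher and 5 to 7 lower. With the unmoderated test 1957 probe sets were higher and 1715 lower, and 2 family probe sets were higher. In that test 0 other IGF system genes were higher and 1 lower (3 higher at an unadjusted p below 0.05), 2 signalling genes were higher and 3 lower, 2 proteases higher and 1 lower, and 1 FOXO-induced gene higher and 4 lower. With limma's test against a minimum fold of 1.5 the numbers were 833 and 615 probe sets, 2 family probe sets higher, 0 and 0 other IGF system genes (0 and 2 at an unadjusted p below 0.05), 1 and 2 signalling genes, 1 and 0 proteases (2 and 3 unadjusted), and 0 and 3 FOXO-induced genes (2 and 5 unadjusted). Without both arrays of experiment 1, 3 family probe sets, 1 other IGF system gene and 2 signalling genes were higher. The minimum fold is a stricter test by construction; the cause of the other changes was not tested. Low signal limits what can be said of Igf2, Igfbp2 and Igfbp1.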
